A study of Mus musculus with 4 samples.

Results

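Group 1 innate lymphoid cells (ILC1) were described in leukocytes from subcutaneous KPC tumours of mice given a STING agonist, an LTbR agonist, both or neither. The cells were picked by transcripts and not by surface proteins. A cell counted as ILC1-like when it held no unique molecular identifier (UMI, a tag that counts one captured RNA molecule) of Cd3e, Cd3d or Cd3g, at least 1 UMI of Ncr1 or Klrb1c, none of Eomes, Klra8 or Klra4, at least 1 of Itga1, Tmem176b or Cd200r1, and none of Csf1r or Cd79a. After cells with fewer than 300 or more than 5000 genes, or with over 6% of UMIs from mitochondrial genes, had been left out, 231 of 23011 cells met the rule, a share of 1.00% (exact Clopper-Pearson 95% interval 0.879 to 1.14%). They made up 17.3% of the 1339 Cd3-negative cells with Ncr1 or Klrb1c. The populations most like them were 961 cells of the same kind with a UMI of Eomes, Klra8 or Klra4, called Eomes or Ly49 cells here, and 147 cells with neither those genes nor a marker of the ILC1-like gate.

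ILC1 and natural killer (NK) cells are innate lymphocytes that kill or alarm without an antigen receptor. Both carry NKp46 (Ncr1) and NK1.1 (Klrb1c) in C57BL/6 mice. NK cells circulate, need the transcription factor Eomes and bear Ly49 receptors (the Klra genes) that read MHC class I. ILC1 are held in tissues, where CD49a (Itga1) binds collagen and the interleukin-7 receptor (Il7r) gives a survival signal, and they are known as sources of cytokines and of TRAIL (Tnfsf10). In mouse tumours, cells with features of both have been described.

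KPC is a line from the pancreatic tumour of a genetically engineered mouse whose tumour alleles, mutant Trp53 among them, were switched on by Pdx1-Cre. It was grown under the flank skin of young adult male C57BL/6NHsd mice, as the study's methods state. The groups were untreated mice, mice given the STING agonist ADU-S100 into the tumour, mice given the agonistic anti-LTβR antibody 4H8 into the peritoneum (LTbR agonist), and mice given both (combination). By the study's methods, the STING agonist was injected a single time and the antibody repeatedly. Tumours were harvested weeks after that STING agonist injection. STING is a sensor of cytosolic cyclic dinucleotides that drives type I interferon. LTβR is the receptor for lymphotoxin and drives lymphoid tissue formation. Each group was 1 library of live CD45-positive cells sorted from pooled tumours, so that differences between mice cannot be seen and no comparison between treatments carries a test. Values by library are given below in the order untreated, STING agonist, LTbR agonist and combination.

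The 4 libraries held 32529174 to 60770280 UMIs in 3955 to 7824 barcodes, and median depth ran from 5750 to 7094 UMIs per filtered cell. ILC1-like cells had medians of 4990, 6191, 4549 and 5490 UMIs, against 5040, 5328.5, 4513 and 4825 in Eomes or Ly49 cells. In all, 284 barcode sequences occurred in more than 1 library. Of the ILC1-like cells, 3 carried such a sequence and 0 shared it with another ILC1-like cell.

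The label was first checked against the 4 markers Ncr1, Itga1, Il7r and Xcl1. Ncr1, which the rule uses, was found in 177 ILC1-like cells (76.6%) and Itga1, which it also uses, in 160 (69.3%). Xcl1 is a chemokine that draws cross-presenting dendritic cells, and the rule did not use it. It had a UMI in 71.0% of ILC1-like cells, in 58.2% of Eomes or Ly49 cells and in 0.440% of 8639 Csf1r cells. The Csf1r cells held a Csf1r UMI and none of Cd3e, Cd3d, Cd3g, Ncr1 or Klrb1c, and should lack Xcl1. Leaving out cells with those genes may itself lower their Xcl1 share. Median depths were 5490, 4833 and 9246 UMIs. Il7r had a UMI in 44.6%, 4.37% and 37.4% of the same populations, so that an Il7r UMI does not by itself set the ILC1-like cells apart from myeloid cells. After each cell was thinned to 1000 UMIs, the Il7r shares were 16.5%, 1.46% and 11.2%, and those of Xcl1 were 52.8%, 33.0% and 0.0817%. Markers of other lymphoid cells were at 0 only in part. Il22 and Il17f, which mark group 3 innate lymphoid cells, and Il13, Il5 and Il17rb of group 2 cells were at 0 in ILC1-like cells of all 4 libraries. Il23r and Ccr6 of the group 3 list had 8 and 5 UMIs, all in cells without Itga1, against 0 in Eomes or Ly49 cells. Lta had 20 UMIs in cells with Itga1 and another gate marker and 26 in cells without Itga1. Kit of the group 3 list and Klrg1 of the group 2 list passed as higher in the comparison of the populations below. The group 3 list (7 of 10 genes above 0) summed to 154 to 192 CPM in ILC1-like cells and to 62.1 to 121 CPM in Eomes or Ly49 cells, and the group 2 list (6 of 10 above 0) to 133 to 313 and 70.3 to 88.2 CPM.

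The name holds less well for Ly49, because the rule reads only Klra8 and Klra4. Of 9 further Ly49 genes in the matrix, at least 1 had a UMI in 56 of the 231 ILC1-like cells (24.2%, 18.9 to 30.3%), with Klra5 in 19 cells, Klra7 in 18 and Klra3 and Klra9 in 13 each. The same genes had a UMI in 817 of 961 Eomes or Ly49 cells (85.02%). By library the share was 30.6%, 15.7%, 34.0% and 20.3% of ILC1-like cells. The cells are therefore called ILC1-like by their gate and are not described as free of Ly49. Ly49 genes are close copies of each other in one cluster on chromosome 6, and reads can be split between them, so each single Klra value is uncertain.

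Many cells lay near the limits of the gate. Of the 231 cells, 43 rested on exactly 1 UMI of Ncr1 and Klrb1c together and 66 on exactly 1 UMI of Itga1, Tmem176b and Cd200r1 together. Just outside, 38 cells had exactly 1 UMI of Eomes, Klra8 and Klra4 and 23 cells had exactly 1 Cd3 UMI. A further 49 cells were left out for Csf1r, and their median depth was 14507 UMIs. When every cell was thinned to 1000 UMIs, 103 cells met the rule, of which 69 were among the original 231. The rest of the 103 had not met the rule at full depth. Of the original 231 cells, 132 still had an Ncr1 or Klrb1c UMI, and 63 of these no longer showed a gate marker. The gate thus finds cells only where a low-level transcript was caught, and the true size of the population was not measurable at this depth.

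Other cell types could share the droplets. At least 2 UMIs of T cell receptor or T cell genes other than Cd3 were present in 119 ILC1-like cells (51.5%) and in 490 Eomes or Ly49 cells (51.0%), and the summed T cell list lay at 356 to 399 CPM (UMIs scaled to the depth of the summed cells) in the ILC1-like cells, mostly Trbc1. At least 2 myeloid genes were found in 63 ILC1-like cells (27.3%) and in 140 Eomes or Ly49 cells (14.6%). Of 12 macrophage and monocyte markers, 11 were above 0 in ILC1-like cells, where their sum ran from 1208 to 1691 CPM and was mostly Ly6c2. Dendritic cell markers (9 of 12 above 0, with Xcr1, Cd209a and Fscn1 at 0) summed to 1999, 491, 1995 and 2053 CPM. Neutrophil markers summed to 196, 1101, 107 and 0 CPM, where 99.6% of the 237 S100a9 UMIs in the STING agonist library came from a single cell. B cell and plasma markers (4 of 8 above 0) summed to 51.7 to 135 CPM and tumour and stroma markers (3 of 8 above 0) to 162 to 213 CPM. A doublet score above 0.2 was given to 5 ILC1-like cells, and doublets were kept.

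The ILC1-like share of leukocytes was highest in the STING agonist library. There were 49, 70, 53 and 59 cells among 6783, 3748, 7147 and 5333 filtered cells. The shares were 0.722% (exact 95% interval 0.535 to 0.954%), 1.87% (1.46 to 2.35%), 0.742% (0.556 to 0.969%) and 1.11% (0.843 to 1.42%). The STING agonist interval lay above each of the others, while those of the untreated, LTbR agonist and combination libraries overlapped. Against untreated, the share was 2.59 times as high with the STING agonist (interval 1.53 to 4.40, from opposite bounds of both shares), 1.03 times with the LTbR agonist (0.583 to 1.81) and 1.53 times with the combination (0.884 to 2.66). The combination stood at 0.592 times the STING agonist share (0.358 to 0.977). These intervals cover counting error only and leave out mouse-to-mouse and sorting differences. The 3 ratios to untreated share that library. After every cell was thinned to 1000 UMIs, the shares were 0.288% (0.173 to 0.449%), 0.766% (0.509 to 1.105%), 0.480% (0.331 to 0.674%) and 0.446% (0.283 to 0.668%), so that the STING agonist interval lay above that of untreated but overlapped the other 2. ILC1-like cells of the STING agonist library were also the deepest, at a median of 6191 UMIs against 4549 to 5490 in the others.

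Eomes or Ly49 cells were ordered differently, and their share was highest with the LTbR agonist. It stood at 0.820 times the untreated share with the STING agonist (0.593 to 1.13), at 1.66 times with the LTbR agonist (1.33 to 2.08) and at 1.15 times with the combination (0.886 to 1.498). Within the Cd3-negative Ncr1 or Klrb1c cells, the ILC1-like cells made up 15.5% (11.7 to 19.9%), 36.1% (29.3 to 43.3%), 10.2% (7.70 to 13.1%) and 19.3% (15.01 to 24.2%). By this denominator too, the STING agonist library stood above the other 3, although after thinning its interval (14.5 to 28.97%) overlapped that of the combination (7.25 to 16.4%). At full depth and by this denominator, the combination stood at 1.90 times the LTbR agonist share (1.15 to 3.14). After thinning, its interval (7.25 to 16.4%) overlapped that of the LTbR agonist (6.39 to 12.6%). By filtered cells the ratio of these 2 libraries was 1.49 (0.870 to 2.56). A share cannot tell more cells of a kind from fewer of the others. Without the cells that had 2 or more T cell UMIs, the STING agonist ratio was 2.10 with an interval of 0.954 to 4.65, which includes 1. Where an Ncr1 UMI was required, the combination ratio was 2.08 with an interval of 1.08 to 4.06, which no longer includes 1.

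**Figure D1:**
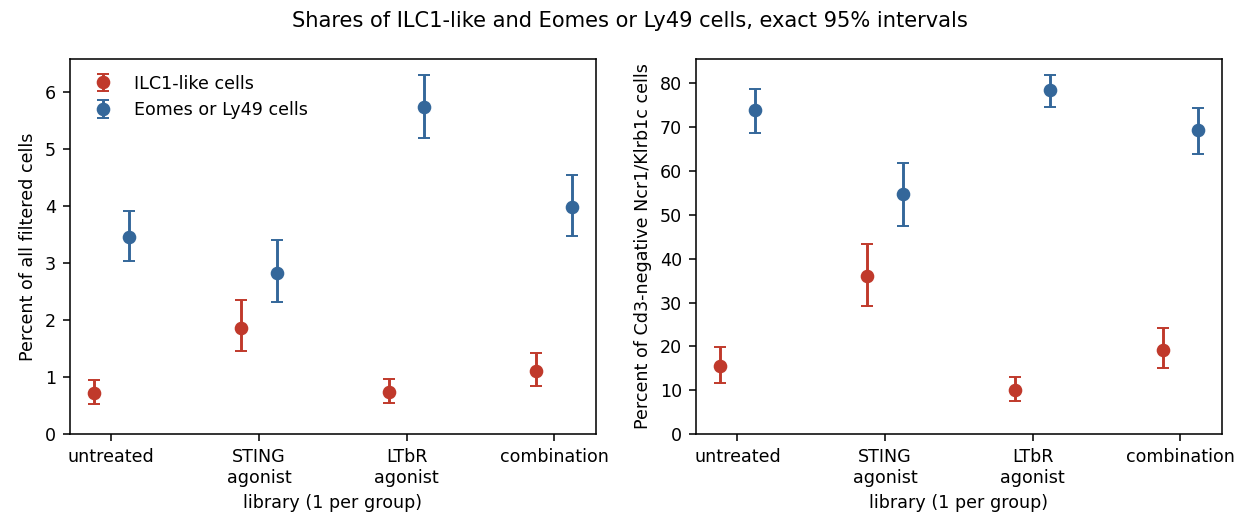
Percent of all filtered cells (left) and of Cd3-negative Ncr1 or Klrb1c cells (right) in each library, with exact 95% intervals, for ILC1-like cells (red) and Eomes or Ly49 cells (blue). The ILC1-like share peaks in the STING agonist library at 1.87% of filtered cells and 36.1% of Ncr1 or Klrb1c cells.

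The ILC1-like cells were not uniform, and the marker that admitted a cell went with its profile. Itga1 was the only gate marker in 72 cells, while 159 cells carried Tmem176b or Cd200r1, of which 88 also had Itga1. The cells with Itga1 alone numbered 18, 16, 24 and 14, or 36.7%, 22.9%, 45.3% and 23.7% of the ILC1-like cells of their library, and those with Tmem176b or Cd200r1 numbered 31, 54, 29 and 45. Cd200r1, an inhibitory receptor, was seen in 17, 19, 5 and 16 cells. Median depth was 4003 UMIs in the cells with Itga1 alone and 6524 where Itga1 stood with another marker. Counted by Tmem176b or Cd200r1 and without Itga1 (an alternative chosen after seeing the data), the STING agonist share was 3.15 times the untreated share (1.67 to 6.04).

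Granzyme A (Gzma), a protease of the cytotoxic granule, differed most plainly. In cells with Tmem176b or Cd200r1 it lay at 202, 258, 143 and 690 CPM, and in cells with Itga1 alone at 3620, 1962, 6886 and 6788 CPM. Every library of the second set was above every library of the first. A Gzma UMI was found in 21 of 159 cells (13.2%) of the first and 34 of 72 (47.2%) of the second set. Eomes or Ly49 cells with a gate marker lay between 2823 and 4253 CPM of Gzma, and those without a marker between 4566 and 5486 CPM. By summed CPM of Gzma, the cells with Itga1 alone were thus nearer to the Eomes or Ly49 cells than to the other ILC1-like cells. By share of cells they lay in between. A Gzma UMI was found in 80.2% of Eomes or Ly49 cells with a gate marker and in 92.6% of those without.

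The remaining genes followed the same split in part. The Ly49 gene Klra7 was at 0, 2.60, 34.3 and 16.3 CPM in cells with Tmem176b or Cd200r1 and at 461, 24.99, 179 and 180 CPM in cells with Itga1 alone, where the STING agonist library lay within the range of the first set. A UMI of any of the 9 further Ly49 genes was present in 21 of the 159 cells (13.2%) and in 35 of the 72 (48.6%). Il7r lay at 149, 224, 269 and 289 CPM against 71.8, 125, 75.5 and 36.0 CPM, and the groups of libraries did not overlap. Cxcr6, a chemokine receptor that keeps lymphocytes in tissues, was at 144, 146, 200 and 182 CPM against 30.8, 162, 9.43 and 0 CPM, so that the STING agonist library of the second set reached into the range of the first. Xcl1 lay at 1931, 2132, 2696 and 1584 CPM against 379, 1437, 538 and 204 CPM without overlap. Lymphotoxin beta (Ltb) was likewise higher without overlap, at 442, 573, 549 and 416 CPM against 164, 300, 132 and 192 CPM.

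Other features were shared by both sets of ILC1-like cells. Inpp4b, a phosphatase of phosphoinositide signalling, lay at 542 to 687 CPM in cells with Tmem176b or Cd200r1 and at 445 to 1474 CPM in cells with Itga1 alone, and in Eomes or Ly49 cells with and without a gate marker it lay at 151 to 230 and 19.6 to 43.7 CPM. Granzyme C (Gzmc) ranged from 1820 to 6139 CPM and from 985 to 10440 CPM in the ILC1-like sets. In Eomes or Ly49 cells it ranged from 1629 to 4000 CPM where a gate marker was present and from 103 to 268 CPM where none was. By summed CPM, Gzmc was high in each set that carried a gate marker, also together with Eomes or Ly49, and low in the rest. A Gzmc UMI was found in 49.7% of cells with Tmem176b or Cd200r1 and in 33.3% with Itga1 alone. In Eomes or Ly49 cells it was found in 36.1% with a gate marker and 8.86% without. The 985 and 10440 CPM of cells with Itga1 alone rested on 4 and 5 cells with a UMI. Because the sets were defined by transcripts of the same cells and the smallest holds 14 cells in a library, these levels are a description and were not tested.

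**Figure D2:**
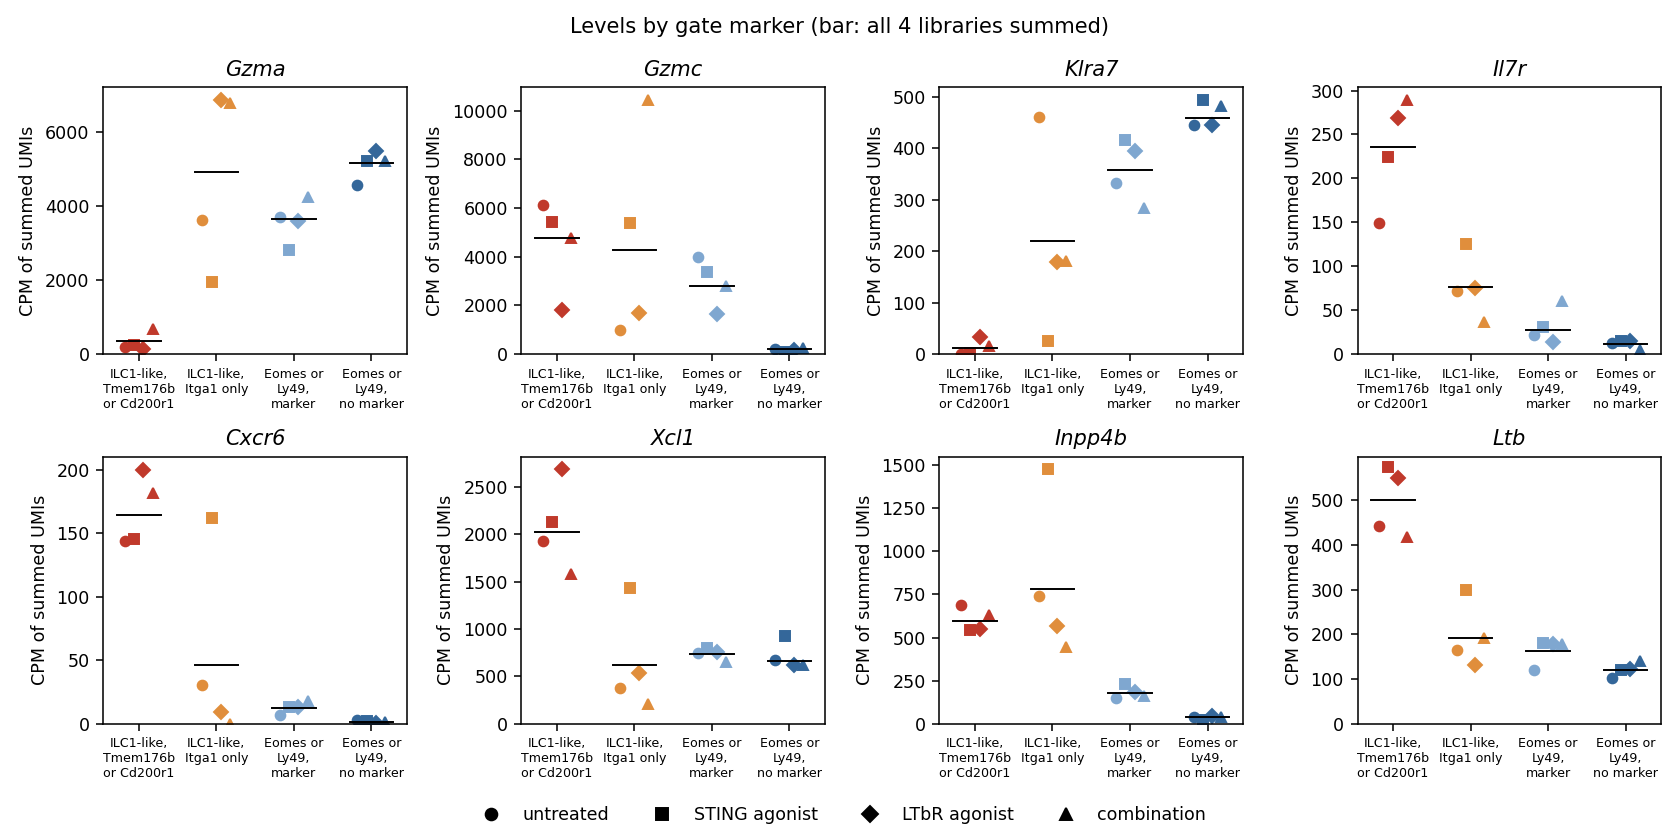
CPM of 8 genes (linear axes from 0) in ILC1-like cells with Tmem176b or Cd200r1, ILC1-like cells with Itga1 alone, and Eomes or Ly49 cells with or without a gate marker; symbols are libraries and bars the 4 libraries summed. Gzma is lowest in the first set at 143 to 690 CPM and Gzmc lowest in the last at 103 to 268 CPM.

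To find which genes differed in each library, UMIs of ILC1-like cells and of Eomes or Ly49 cells were summed by library, and the 8 sums were compared with the library as a block. Of 6543 genes tested outside the gate, 337 were higher in ILC1-like cells (5.15%) and 338 lower (5.17%), together 675 (10.3%), by edgeR's quasi-likelihood test at an adjusted p under 0.05. The median log2 fold change over all genes was 0.00. Values given with ± in the comparison of the populations are log2 fold changes with an SE worked back from edgeR's test statistic. That SE rests on the 4 libraries but is not the observed spread between them. Since both populations were chosen on transcripts of the same cells, this test asks whether a difference came back in the 4 libraries, not whether the populations are distinct, and genes that vary from cell to cell with the gate genes may be among the calls. The libraries also differ in treatment, which the block absorbs only where it shifts both populations alike.

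The gate's own genes are given without a test. Itga1 lay at 281, 211, 228 and 256 CPM in ILC1-like cells and at 94.7, 89.8, 83.5 and 74.3 CPM in Eomes or Ly49 cells, which may carry it under the rule. Ncr1 was at 330, 446, 342 and 407 CPM against 283, 375, 289 and 289 CPM. Eomes was 0 by the rule in the first and lay between 302 and 345 CPM in the second population.

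Genes of tissue residency and ILC1 identity were higher in ILC1-like cells: 14 of 15 tested passed, none was lower, and their median log2 fold change was 1.68 against 0.00 over all genes. Of the 14 calls, 13 passed whichever library was left out, and Cxcr3 did not pass without the STING agonist library (0.56). Where ILC1-like cells were picked by an Itga1 UMI, Cxcr3 (0.42) and Kit (0.41) did not pass. The list was chosen with earlier results of these data known and is not independent evidence. Cxcr6 lay at 108, 149, 128 and 143 CPM in ILC1-like cells and at 4.44, 6.30, 4.27 and 5.98 CPM in Eomes or Ly49 cells. The populations did not overlap, and the log2 fold change was 4.64 ± 0.24 (SE, 4 libraries, edgeR adjusted p = 1.9e-14). Il7r lay at 124, 207, 196 and 235 CPM against 15.5, 20.5, 14.7 and 20.5 CPM, again without overlap (log2 fold change 3.42 ± 0.18, edgeR adjusted p = 1.9e-14). Rora, a nuclear receptor of innate lymphoid cells, was at 559, 603, 484 and 338 CPM against 59.9, 52.0, 53.1 and 70.0 CPM (3.03 ± 0.15, edgeR adjusted p = 6.2e-15). Inpp4b had the smallest adjusted p of all genes, 2.3e-16 by edgeR, at 703, 702, 556 and 591 CPM against 78.4, 94.5, 83.5 and 75.1 CPM.

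Tmem176a rose by 5.12 ± 0.26 on the log2 scale, at 157, 164, 171 and 312 CPM against 8.14, 9.45, 0.949 and 7.68 CPM. It lies on chromosome 6 from 48840919 to 48847071 (mm10) and overlaps the start of Tmem176b, a gate gene on the opposite strand from 48833818 to 48841496, so that its rise is not independent of the gate. The death ligand TRAIL (Tnfsf10) rose by 1.74 ± 0.22, the transcription factor Helios (Ikzf2) by 1.28 ± 0.16 and the stem cell factor receptor Kit by 0.81 ± 0.16 on the log2 scale, and each was higher in 4 of 4 libraries. Cd69, a retention and activation marker, was the member that did not pass (0.15 ± 0.14, edgeR adjusted p = 0.65).

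Genes of circulating NK cells were mostly lower, 9 of 16 tested, with 3 higher, and 8 of these 12 calls passed whichever library was left out. Klf2, a transcription factor that drives egress receptors, fell by 1.82 ± 0.17 and the NK integrin CD49b (Itga2) by 2.18 ± 0.23 on the log2 scale. Serpinb9b was at 0, 0, 10.7 and 0 CPM against 59.9, 69.3, 37.5 and 60.6 CPM, and the groups did not overlap. Ly6c2 went the other way at 1505, 1560, 666 and 1380 CPM against 256, 140, 122 and 194 CPM (2.80 ± 0.12, edgeR adjusted p = 6.5e-16). Ly6c2 is also a monocyte gene, and a UMI of it was present in 61.9% of Csf1r cells; its part in the ILC1-like value was not tested.

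Among NK receptors, 4 of 17 tested rose and 7 fell. The activating receptor DNAM-1 (Cd226) lay at 268, 336, 335 and 338 CPM against 40.7, 52.0, 36.5 and 36.7 CPM (2.96 ± 0.14, edgeR adjusted p = 5.1e-15). NKG2A (Klrc1), an inhibitory receptor for Qa-1, rose by 1.18 ± 0.11 and the inhibitory receptor gene Klrb1b by 1.46 ± 0.10. The Ly49 genes Klra1, Klra3, Klra7 and Klra9 were lower, with log2 fold changes of -2.79, -2.44, -2.71 and -2.42. They are near copies of the 2 Ly49 genes the gate excludes, so their fall follows in part from the rule.

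Granzymes changed in both directions. Gzma lay at 1292, 552, 2689 and 1989 CPM in ILC1-like cells and at 4279, 4365, 4955 and 4952 CPM in Eomes or Ly49 cells, a log2 fold change of -1.69 ± 0.17 (edgeR adjusted p = 1.3e-08). Perforin (Prf1), which opens the target membrane, fell by 0.62 ± 0.11 and granzyme B (Gzmb) by 0.53 ± 0.11 on the log2 scale, each lower in 4 of 4 libraries. Neither passed when ILC1-like cells were picked by an Itga1 UMI (-0.32 and -0.29). Prf1 was also lost after thinning, and Gzmb without the library block. Summed over libraries, Prf1 lay at 739 and Gzmb at 2375 CPM in cells with Itga1 alone, and at 175 and 718 CPM in cells without Itga1. Eomes or Ly49 cells without a gate marker had 585 and 1693 CPM. Gzmc lay at 4495, 5423, 1770 and 5964 CPM against 1498, 1262, 592 and 983 CPM (1.97 ± 0.12, edgeR adjusted p = 4.6e-13). Its neighbours Gzmd, Gzme and Gzmf, on chromosome 14 between 56117626 and 56211417, rose by 1.74, 2.85 and 2.11, but each rested on few cells: Gzmf had a UMI in 6 of the 231 ILC1-like cells, and 91.1% of its untreated UMIs came from a single cell. Gzmf was higher in 2 of 4 libraries and lower in the other 2, and it did not pass without the untreated (1.78) or the combination library (1.02). Of 13 cytotoxic genes tested, 6 rose and 4 fell.

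Chemokine genes also split, with 3 higher and 3 lower of 7 tested. Ccl5, a chemokine that draws T cells and monocytes, lay at 923, 681, 3156 and 1799 CPM against 2967, 4694, 6312 and 4447 CPM (log2 fold change -1.67 ± 0.15, edgeR adjusted p = 2e-09). Ccl4 and Ccl3, inflammatory chemokines of activated lymphocytes and macrophages, fell by 1.67 and 1.90 on the log2 scale. Xcl1 lay at 1436, 2012, 1881 and 1290 CPM against 700, 879, 659 and 629 CPM without overlap (1.20 ± 0.09, edgeR adjusted p = 4.8e-11). Cxcl10 rose by 1.92 but was higher in 3 of 4 libraries, and 89.0% of its UMIs in the combination library came from a single cell. Spp1 (0.88 ± 0.14) turned to -0.33 without the cells that had T cell UMIs. Of the 6 calls, 5 were lost or turned without those cells, and Ccl5 was the one that passed. Leaving them out removed 51.5% of ILC1-like and 51.0% of Eomes or Ly49 cells, and 3640 genes were tested against 6543. Xcl1 (0.72), Cxcl10 (1.23), Ccl3 (-0.98) and Ccl4 (-0.91) kept their sign.

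Lymphotoxin beta was the member of the lymphotoxin and TNF list that rose, at 353, 526, 391.8 and 369 CPM against 108, 142, 138 and 150 CPM (1.59 ± 0.12, edgeR adjusted p = 9e-11). The TNF receptor gene Tnfrsf1b fell by 0.47 ± 0.12 on the log2 scale but did not pass without the untreated library (-0.44), and the other 7 of 9 tested did not pass. Of 15 cytokine receptor genes tested, 3 rose and 1 fell. Il2ra, the high-affinity chain of the interleukin-2 receptor, rose by 3.25 ± 0.26, at 85.1, 81.9, 107 and 94.7 CPM against 8.14, 14.2, 6.17 and 12.8 CPM. The interleukin-10 receptor gene Il10ra fell by 0.92 ± 0.19.

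Checkpoint and costimulatory genes were higher for 7 of 13 tested and lower for 2. PD-1 (Pdcd1) lay at 147, 110, 21.4 and 102 CPM against 8.14, 0, 3.79 and 5.12 CPM (4.15 ± 0.33, edgeR adjusted p = 2.3e-10), with a UMI in 16.0% of ILC1-like cells. CTLA-4 (Ctla4) rose by 1.46 ± 0.15 and Lag3 by 1.45 ± 0.23, both inhibitory receptors of activated lymphocytes. Cd27 fell by 1.09 ± 0.22 and Tigit by 0.45 ± 0.14, and the Tigit call was lost without the LTbR agonist (-0.35) or the combination library (-0.38). Transcription factor genes moved equally in both directions, 4 higher and 4 lower of 20 tested, but 4 of these 8 calls (Id2, Bhlhe40, Prdm1 and Nfil3) were lost when 1 library was left out. Id2, which all innate lymphoid cells need, rose by 0.37 ± 0.09 but did not pass without the untreated (0.35) or combination library (0.34). Without the STING agonist library, Bhlhe40 stood at 0.33, Prdm1 at -1.06 and Nfil3 at -0.49, and none of these passed. Irf8, which maturing NK cells need, fell by 0.83 ± 0.12. T-bet (Tbx21), shared by ILC1 and NK cells, was at 376, 299, 221 and 215 CPM against 241, 261, 220 and 190 CPM and did not pass (0.27 ± 0.12, edgeR adjusted p = 0.21).

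Homing and egress genes had 3 members higher and 7 lower of 14 tested, among the latter Cxcr4 (-0.95 ± 0.14) and the integrin gene Itga4 (-0.70 ± 0.12), and 7 of these 10 calls passed whichever library was left out. Of 14 genes of a TGF-β programme, 4 were higher (Gzmc, Ctla4, Xcl1 and Tnfrsf9) and 3 lower (Tgfb1, Pmepa1 and Cd9), so the list did not move one way; Tnfrsf9 did not pass without the untreated library (0.40). Type I interferon response genes had 5 higher and none lower of 17 tested, with Ifitm3 (2.30 ± 0.15), Ifit1, Ifit3, Bst2 and Isg15 (0.77 ± 0.15). Ifit1 did not pass without the STING agonist (1.08) or combination library (1.18), nor Ifit3 without the combination library (0.95). Glycolysis and hypoxia genes had 6 higher and none lower of 14, from Bnip3 (1.19 ± 0.26) to Gapdh (0.39 ± 0.10). Each of these 6 calls was lost when some library was left out: without the LTbR agonist library Bnip3 (0.87), Slc2a3 (0.83), Pgk1 (0.42), Gapdh (0.32) and Pkm (0.27) did not pass, and Ddit4 (0.47) did not pass without the untreated library. Without cells with 2 or more myeloid genes 5 of the 6 did not pass, with Pgk1 at 0.19, Pkm at 0.08 and Gapdh at 0.05. Immediate early and heat shock genes had 3 higher and 1 lower of 19, and cell cycle genes 3 higher and 1 lower of 8. Of the first 4 calls, Fos (0.48) and Nr4a3 (0.33) did not pass without the combination library, nor did Junb (0.31), and Fos stood at 0.10 where an Ncr1 UMI was required. None of the 4 cell cycle calls held throughout: Top2a (0.53) and Tubb5 (0.24) did not pass without the untreated library, Pcna (0.57) without the LTbR agonist library and Cenpa (-0.72) without the STING agonist library. At least 2 of 8 cycling genes were present in 9 of 231 ILC1-like cells (3.90%, 1.80 to 7.27%) and in 24 of 961 Eomes or Ly49 cells (2.50%, 1.61 to 3.69%). The dendritic cell genes H2-Ab1 and Cd74, of MHC class II presentation, were higher by 2.05 and 1.82 on the log2 scale. In the combination library 84.4% of Cd74 UMIs came from a single cell, and the part of dendritic cells in these values was not tested.

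**Figure D3:**
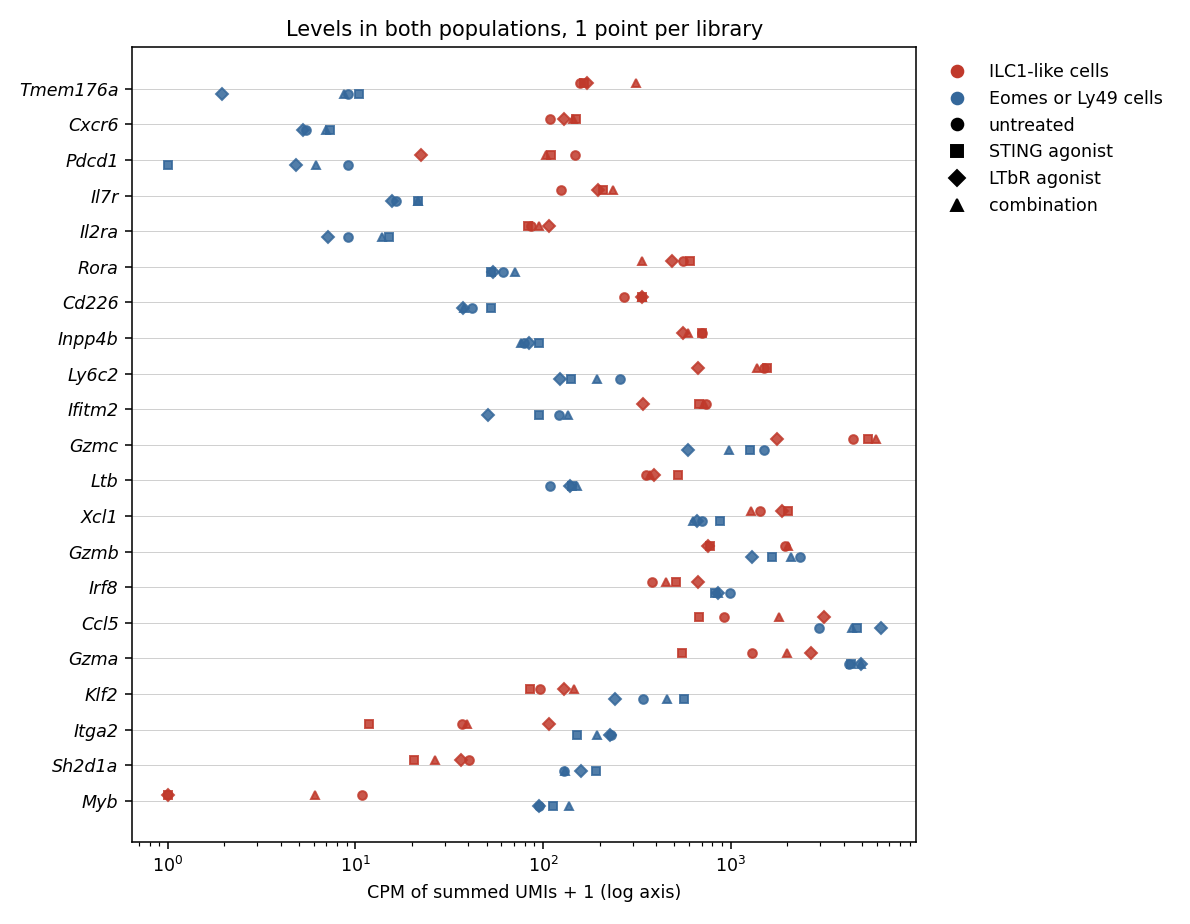
CPM + 1 (log axis) of 21 genes in ILC1-like cells (red) and Eomes or Ly49 cells (blue), with 1 symbol per library. Cxcr6, Il7r and Rora stand to the right in red in each library, Sh2d1a and Myb to the left, and Gzmb overlaps between populations.

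**Figure D4:**
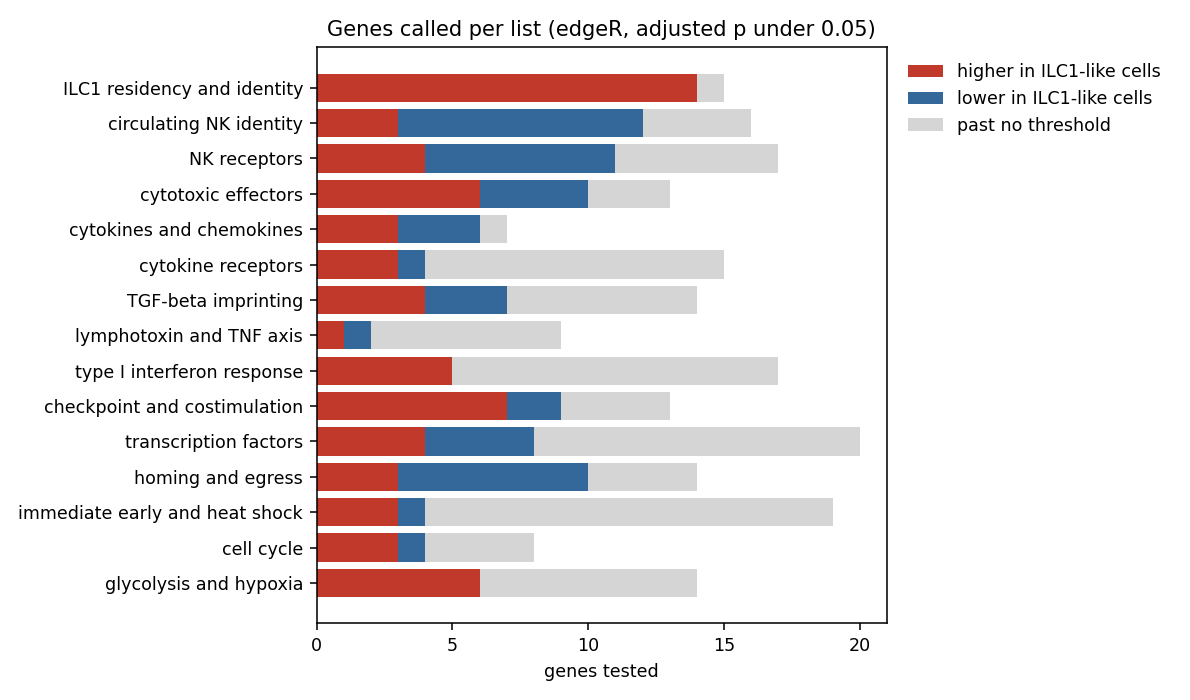
Number of genes tested in each list (horizontal axis) that were higher (red) or lower (blue) in ILC1-like cells, or passed no threshold (grey), by edgeR at an adjusted p under 0.05. The ILC1 list has 14 higher and 0 lower of 15, whereas the cytotoxic list has 6 higher and 4 lower of 13.

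Beyond these lists, the highest fold changes among genes of at least 50 CPM were of Ccdc184 (5.56 ± 0.38) and Tmem176a, followed by Krt83 (4.93 ± 0.32), Cxcr6, Tcrg-C4, Pdcd1, Il7r, Il2ra, St6galnac3, Ifitm1, Sema6d and Rora. Tcrg-C4, a constant segment of the T cell receptor gamma locus, lay at 108, 103, 74.8 and 61.4 CPM against 2.22, 12.6, 0.949 and 2.56 CPM, whereas Trdc, the delta constant segment, was lower at 9.81, 10.8, 10.7 and 5.12 CPM against 72.5, 59.9, 63.1 and 61.5 CPM. Whether T cells with undetected Cd3 add to Tcrg-C4 was not tested. Krt83, a hair keratin gene, lay at 94.9, 114, 142 and 128 CPM against 5.18, 9.45, 0.949 and 3.41 CPM. The lowest was Myb, a transcription factor of immature and proliferating blood cells, at 9.81, 0, 0 and 5.12 CPM against 94.7, 112, 93.9 and 136 CPM (-4.93 ± 0.38, edgeR adjusted p = 7.8e-11). It was followed by Serpinb9b, Airn, Cd55, Trdc, Klra7, Plxnc1, Klra3, Klra9, D5Ertd615e and Sh2d1a. Sh2d1a, the adaptor SAP of the SLAM receptors, lay at 39.3, 19.4, 35.6 and 25.6 CPM against 129, 191, 157 and 130 CPM, and no library of the first overlapped the second.

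Between treatments, ratios of CPM to the untreated library were formed within ILC1-like cells after adding 20 CPM, over genes with at least 50 UMIs in 1 of the 2 libraries. With the STING agonist, 16 of 1559 genes lay at a log2 ratio of at least 1 (1.03%) and 15 at -1 or below (0.962%). With the LTbR agonist it was 16 (1.55%) and 11 (1.07%) of 1030 genes, and with the combination 3 (0.242%) and 18 (1.45%) of 1242 genes. The median ratio was 0.05, -0.02 and 0.00. These counts have no replicate check, and the 3 comparisons share the untreated library of 49 cells. Genes were ranked by ratio only where at least 10% of cells held a UMI and no cell held over 25% of the UMIs, and the highest and lowest ratios below are within these limits. Genes outside them reached further, such as Spp1 (1.57) and H2-Aa (-3.11) with the STING agonist and Cxcl10 with the LTbR agonist (3.98) and the combination (3.28). Where ratios are given with bounds, the bounds set exact Poisson limits of both libraries against each other and cover counting error only.

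In the STING agonist library, the highest ratio within these limits was of Zfp36l1, which encodes an mRNA decay protein. It lay at 193, 556, 310 and 391.6 CPM across the libraries, so that each treated library was above untreated. The log2 ratio was 1.43 (0.92 to 1.96) with the STING agonist and 0.95 (0.39 to 1.52) with the combination, where it was also the highest within the limits, and 0.63 (-0.0041 to 1.27) with the LTbR agonist. In Eomes or Ly49 cells the Zfp36l1 ratio was 0.18 after the STING agonist, 0.01 after both agonists and -0.04 after the LTbR agonist. Odc1, the first enzyme of polyamine synthesis, had a ratio of 1.32 (0.84 to 1.80) with the STING agonist, against 0.25 (-0.14 to 0.64) in Eomes or Ly49 cells. Cebpb, Limd2, Gna15 and Nt5e followed at 1.08 to 1.11. Nt5e, the adenosine-making ectoenzyme CD73, had a UMI in 31.4% of ILC1-like cells with the STING agonist and in 18.4% without. The lowest within the limits were Ncoa2 (-0.96), Neat1, Pmepa1, Usp15, Smchd1 and Cyth1 (-0.85), and Pmepa1, a target of TGF-β signalling, stood at -0.86 (-1.60 to -0.13).

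In the LTbR agonist library the highest within the same limits was Ccl5, at a log2 ratio of 1.75 (1.49 to 2.02) in ILC1-like cells and 1.08 (1.02 to 1.15) in Eomes or Ly49 cells, so that it lay higher in both. Ccl5 is also common outside these cells, with a UMI in 37.9% of Csf1r cells. Cxcr4, the receptor for CXCL12, stood at 1.24 (0.44 to 2.03), Zeb2, a transcription factor of mature NK cells, at 1.23 (0.45 to 2.02) and Cd44, a hyaluronan receptor, at 1.22 (0.73 to 1.72), and Ppp3ca (1.00) and Cemip2 (0.93) completed the 6. In Eomes or Ly49 cells, Cxcr4, Zeb2 and Cd44 stood at 0.47, 0.05 and 0.22. Within the limits, Ly6c2 was lowest at -1.15 (-1.49 to -0.82), with -0.96 in Eomes or Ly49 cells, and Ifitm2 followed at -1.08 with -1.02. Sqstm1 (-1.07), Plscr1 (-1.07), Ndufa1 (-0.98) and Pdia6 (-0.98) were the other 4. Cells with Itga1 alone were 45.3% of the ILC1-like cells in this library, against 36.7% in untreated. With the STING agonist they were 22.9% and with the combination 23.7%. The part of this mix in the ratios of any treatment was not tested.

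With both agonists, Zfp36l1 was followed by Ociad1, Per1, Cxcr4 (0.84, 0.06 to 1.62), Il7r (0.82, 0.14 to 1.52) and Cycs at 0.77 to 0.86. The lowest within the limits given were Ankrd44 (-1.16, -1.63 to -0.70), Vgll4 (-1.14), Arhgap17, Bach2 (-1.06, -1.62 to -0.50), Nfkbiz and Nsd1 (-1.05). Bach2, a repressor of effector differentiation, lay at 406, 241, 353 and 184 CPM. In Eomes or Ly49 cells its combination ratio was 0.09 (-0.14 to 0.31). Differences between the populations in these ratios were not tested.

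Granzymes in ILC1-like cells varied widely between libraries. Over all ILC1-like cells, Gzmc was lowest with the LTbR agonist at 1770 CPM, a log2 ratio of -1.33 (-1.54 to -1.13), and Eomes or Ly49 cells had -1.31 there. Gzmb lay at 1950, 771, 759 and 2022 CPM, but 64.1% of its untreated UMIs came from a single cell. Gzma, at 1292, 552, 2689 and 1989 CPM, had a UMI in 18.4%, 14.3%, 41.5% and 23.7% of cells. Within the cells with Tmem176b or Cd200r1 the LTbR agonist ratio of Gzma was -0.44, against 1.05 over all ILC1-like cells, so its direction depends on which cells are counted. A single cell held 39.7% of the untreated Gzma UMIs, and a single cell 27.4% of the untreated Gzmc UMIs. The granzyme ratios were therefore given no direction across treatments. That includes Gzmc, which in cells with Itga1 alone lay at 985 CPM untreated and 1688 CPM with the LTbR agonist. In cells without Itga1 it lay at 2163 and 2589 CPM. The larger set with Tmem176b or Cd200r1 went down with the LTbR agonist, from 6139 to 1820 CPM. Where Itga1 stood with another marker, Gzmc went from 8862 to 1307 CPM.

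Members of the residency list went both ways across treatments. With the combination, the log2 ratio was 0.91 (0.29 to 1.53) for Tmem176a, 0.82 (0.14 to 1.52) for Il7r, -0.70 (-1.15 to -0.25) for Rora and -0.9998 (-1.73 to -0.27) for Ikzf2, with 36.9% of Tmem176a UMIs of that library and 34.5% of the untreated Rora UMIs in a single cell. The medians over the 12, 6 and 9 members counted were 0.23, -0.15 and 0.07 with the STING agonist, the LTbR agonist and the combination, against 0.05, -0.02 and 0.00 over all genes. Type I interferon genes past a log2 ratio of 1 were Ifi27l2a (1.57) and Isg15 (1.25) with the LTbR agonist, with 45.6% and 32.5% of their UMIs in a single cell. None of the 5 counted passed with the STING agonist, where Isg15 lay at 134 CPM against 108 CPM untreated. The tumours were harvested weeks after the single STING agonist injection, so an early response of these genes was not measured. For Ltb, the ligand gene of the targeted receptor, the ratios were 0.55 (0.11 to 0.99), 0.14 (-0.38 to 0.67) and 0.06 (-0.43 to 0.55).

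**Figure D5:**
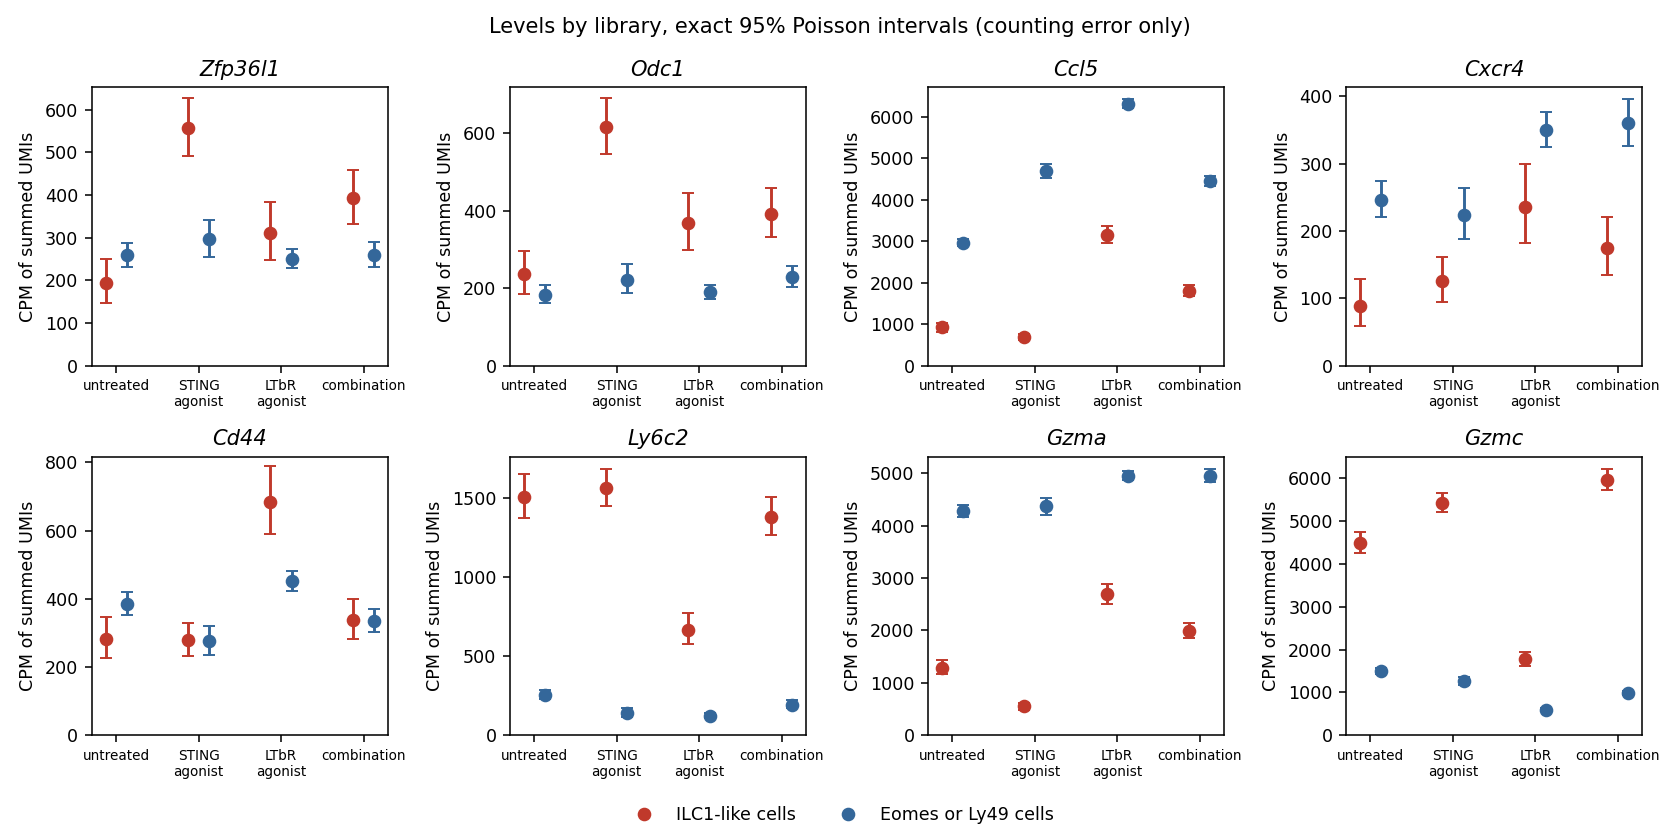
CPM of 8 genes by library (linear axes from 0) in ILC1-like cells (red) and Eomes or Ly49 cells (blue), with exact 95% Poisson intervals. Zfp36l1 is highest in red with the STING agonist at 556 CPM, Ccl5 is highest in both colours with the LTbR agonist, and Gzmc is lowest in both there.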

How the data were processed

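The deposited values were whole-number UMI counts per gene and barcode in 1 matrix of 32285 genes, which the authors made with Cell Ranger 7.1.0 on mm10 from a 10x 5′ kit. The number after the hyphen of each barcode gave the library, as the labels state it. Single-cell work was done in separate mouse experiments per the study's methods, and the labels do not tie the libraries to any of them. Removal of doublets or free RNA is not given in the sources used here. The 5′ kit marks strand, but the counting option is not given in the sources used here.

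Cells with 300 to 5000 genes and at most 6% mitochondrial UMIs were kept, as in the study. Doublets were scored with Scrublet and kept. Analyses ran in Python 3.11.15 (scanpy 1.11.5) and R 4.3.3. The populations were compared with edgeR 4.0.16 (quasi-likelihood, TMM, filterByExpr, library as block, Benjamini-Hochberg over all genes) on summed counts, after a test on simulated data; gate genes were left out. Treatments have 1 library each, so no test was made: shares carry Clopper-Pearson and levels Poisson intervals at 95%, of counting error only. CPM values are UMIs scaled to the depth of the summed cells. Gene positions are from GENCODE vM21 on GRCm38.

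The members and gene lists were chosen with earlier results of these data known. Named were the gate genes and markers, list members with the largest changes, the 12 highest and 12 lowest fold changes (same sign in 4 of 4 libraries, at least 50 CPM), and for each treatment the 6 highest and 6 lowest ratios (at least 50 UMIs, a UMI in at least 10% of cells, no cell with over 25% of UMIs). V(D)J segment, mitochondrial, ribosomal protein, sex-linked marker and unnamed genes were not named by rank. A gene that the rule would name is not reported here. Granzyme values by library, cells by gate marker, and genes beside a single-cell share were chosen after their values were seen. Alternatives were DESeq2 1.42.0 and its size factors, other gates, filters and pseudocounts, thinning to 1000 UMIs and leaving out libraries.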

Additional observations from a re-analysis of the deposited data

Results flagged for a closer look

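Stmn1, a microtubule regulator of dividing cells, moved in opposite directions in the 2 populations with the combination: its log2 ratio to untreated was -1.78 in ILC1-like cells and 1.11 in Eomes or Ly49 cells. The difference was not tested. In untreated ILC1-like cells 94.0% of its 50 UMIs came from a single cell.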

How the results depend on the processing

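All alternatives of the 3 share ratios lay within the intervals of the values given. The count of genes higher and lower in ILC1-like cells (337 and 338) was 166 and 141 with DESeq2, 103 and 79 without cells with T cell UMIs, 69 and 68 after thinning to 1000 UMIs (3640 and 1586 genes tested, against 6543), and 187 and 176 without cells with 2 or more myeloid genes, the last chosen after seeing the data; 221 were higher where an Ncr1 UMI was required. Leaving out 1 library gave 280 to 334 higher and 253 to 315 lower. Dropping the library block gave 260 and 272. The library block pairs the 2 populations within each library. No paired analysis of treatments was possible, because each group has a single sample and the labels give no shared replicate numbers. Xcl1 (0.72), Kit (0.29), Gzmd (1.74), Ccl3 (-0.98), Ccl4 (-0.91), Nkg7 (-0.42) and Id2 (0.14) were among the genes that no longer passed without cells with T cell UMIs. DESeq2 kept 166 and 141 of the same genes and reversed none.

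Among treatment counts, the STING agonist had 7 genes higher with a pseudocount of 100 CPM, 82 with no minimum of UMIs and 28 without myeloid genes, and 29 lower by mean CPM per cell, 24 without T cell UMIs and 92 with no minimum. The LTbR agonist had 10 higher with the pseudocount of 100 CPM, 160 with no minimum and 10 without myeloid genes, and 18 lower with a pseudocount of 5 CPM, 6 with 100 CPM, 7 without the top cell of each gene and 116 with no minimum. The combination had 5 higher with 5 CPM, 6 by mean CPM, 5 without the top cell, 7 by Itga1 alone, 15 without T cell UMIs, 78 with no minimum, 9 by Tmem176b or Cd200r1 and 15 without myeloid genes, and 4 lower with 100 CPM, 36 by mean CPM, 140 with no minimum and 8 by Tmem176b or Cd200r1.

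Values that reversed were the Spp1 fold change, -0.33 without T cell UMIs; with the STING agonist Gzmf, 0.39 without T cell UMIs and 0.21 without myeloid genes, Gzmb, 0.91 without T cell UMIs, and Gzma, 0.32 by Tmem176b or Cd200r1; with the LTbR agonist Gzma, -0.9998 without T cell UMIs and -0.44 by Tmem176b or Cd200r1; and with the combination Gzmd, -3.02 and -0.24 under the same settings. The cause was not tested. Depth limits the gate, since 103 cells met the rule after thinning, 69 of them among the original 231.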
